A study of Schizosaccharomyces pombe with 6 samples.

Results

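The genes of the mitochondrial respiratory chain and the ATP synthase were examined in RNA-seq data from fission yeast (*Schizosaccharomyces pombe*). The authors had discarded genes with few reads, so a gene removed at that step, mitochondrial or nuclear, could not be a member. Members were chosen by identifier or by the words of the deposited gene descriptions. Every listed gene of the mitochondrial genome was taken. So was every gene described as belonging to cytochrome c oxidase, ubiquinol-cytochrome c reductase, the F1 or F0 ATPase, the ATP synthase or succinate dehydrogenase. Ribosomal proteins and methyltransferases were left out. This gave 58 of the 6345 genes and ncRNAs listed, of which 6 are encoded in mitochondria and 52 in the nucleus. Of the nuclear members, 33 are described as subunits of the complexes and 19 as assembly factors, chaperones, activators or inhibitors. The study sequenced RNA from 3 *mkt1Δ* cultures and 3 wild-type cultures, all in exponential growth at 32°C in the rich medium YES. In the mutant strain the *mkt1* gene, which encodes a post-transcriptional regulator, was replaced with a nourseothricin resistance cassette (*mkt1Δ::NatR*). Both strains were h+ and shared the alleles *ade6-210*, *leu1-32* and *ura4-D18* and an *ade6+* reporter in the outer repeats of centromere 1, written *otr1R(Sph1):ade6+*, so the wild-type strain was itself a marked laboratory strain. The level used here is the authors' average log2 CPM (CPM, the reads of a gene scaled to the reads counted in its library) over all 6 libraries of both strains. It describes these genes in the pooled data, carries no spread over libraries and no depth per library, and says nothing of how *mkt1Δ* and wild-type cells differed, which was not analysed here. Every comparison below is therefore between genes and is descriptive, without a test, and an SD is the spread over genes.

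The respiratory chain passes electrons from NADH and succinate to oxygen and pumps protons across the inner mitochondrial membrane, and the ATP synthase uses the return of those protons to make ATP. Fission yeast has no proton-pumping complex I and oxidizes NADH with single-polypeptide dehydrogenases instead, so its chain consists of these enzymes with complex II (succinate dehydrogenase), complex III (ubiquinol-cytochrome c reductase) and complex IV (cytochrome c oxidase). Complexes III and IV and the ATP synthase are built from subunits of both genomes. The mitochondrial genome encodes a few hydrophobic core subunits, and the remaining subunits and all assembly factors are nuclear genes whose products are imported.

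The mitochondrially encoded members lay far below the nuclear members, with no overlap between the groups. *cox1*, *cox2* and *cox3*, which encode the catalytic core of cytochrome c oxidase, had average log2 CPM values of 0.18, -0.55 and -2.11. *cob*, which encodes cytochrome b of complex III, had -1.56. In the membrane-embedded F0 part of the ATP synthase, *atp6* (subunit 6, which forms the proton channel) had -0.16 and *atp9* (subunit 9, of the rotating ring) had -2.18. On the linear scale these levels ran between 0.221 CPM for *atp9* and 1.13 CPM for *cox1*. The lowest value of all genes listed was -2.47, *atp9* ranked 27th from the bottom of the 6345, and 376 genes and ncRNAs (5.93%) were at or below *cox1*. The same was true of 92 of the 5042 nuclear protein-coding genes (1.82%).

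**Figure D1:**
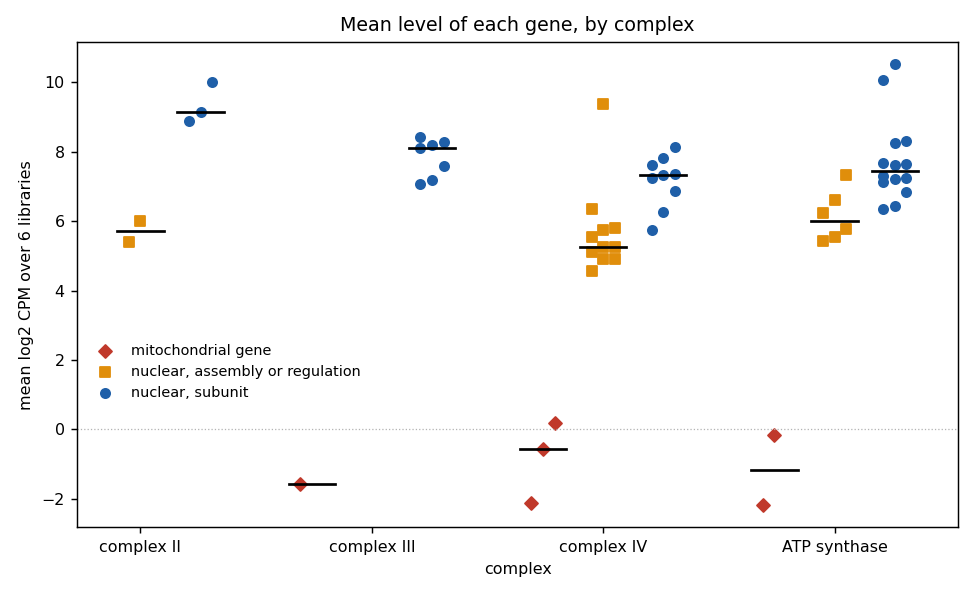
Average log2 CPM over the 6 libraries (vertical axis) of each of the 58 genes, by complex (horizontal axis). Each point is 1 gene and each bar the median of its class. The 6 mitochondrial genes (red diamonds) sit between -2.18 and 0.18, below all 19 assembly and regulatory genes (orange squares) and all 33 nuclear subunit genes (blue circles), whose lowest value is 4.56.

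Because longer transcripts yield more fragments, levels of different genes were compared after division by exon length. Per kb of exon, the log2 level was 0.21 for *atp6*, -0.03 for *atp9*, -0.13 for *cox2*, -0.52 for *cox1*, -1.78 for *cob* and -1.80 for *cox3*. No order among these 6 genes is read from the values, which are near the lowest listed and are pooled over both strains. The median per kb was -0.32 for the 6 mitochondrial members and 7.80 for the 52 nuclear members, a difference of -8.12 on the log2 scale. Between the highest mitochondrial member, *atp6*, and the lowest nuclear member, *shy1*, there remained a gap of 3.43. No fold is given for this difference, since the mitochondrial levels lie close to the lowest values listed, where the small count that edgeR adds to every average by default weighs most. The libraries were made with a kit that selects polyadenylated RNA, and in budding yeast mitochondrial mRNAs carry no poly(A) tail. How far the selection set the low mitochondrial levels was not tested. *var1* (SPMIT.08), the mitochondrial ribosomal protein gene that the choice of members leaves out, had an average log2 CPM of -1.08, between those of *cob* and *cox2*.

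The same separation was present inside each complex of mixed origin. In complex III, *cob* had a log2 level per kb of -1.78, and the 7 nuclear subunit genes had a median of 8.35, a difference of -10.13. In complex IV, the median was -0.52 for the 3 mitochondrial subunit genes and 8.08 for the 9 nuclear ones, a difference of -8.59. In the ATP synthase, the median was 0.09 for *atp6* and *atp9* and 7.86 for the 14 nuclear subunit genes, a difference of -7.77. In these 3 complexes the lowest nuclear subunit gene was above the highest mitochondrial gene by 9.38, 7.83 and 7.23.

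**Figure D2:**
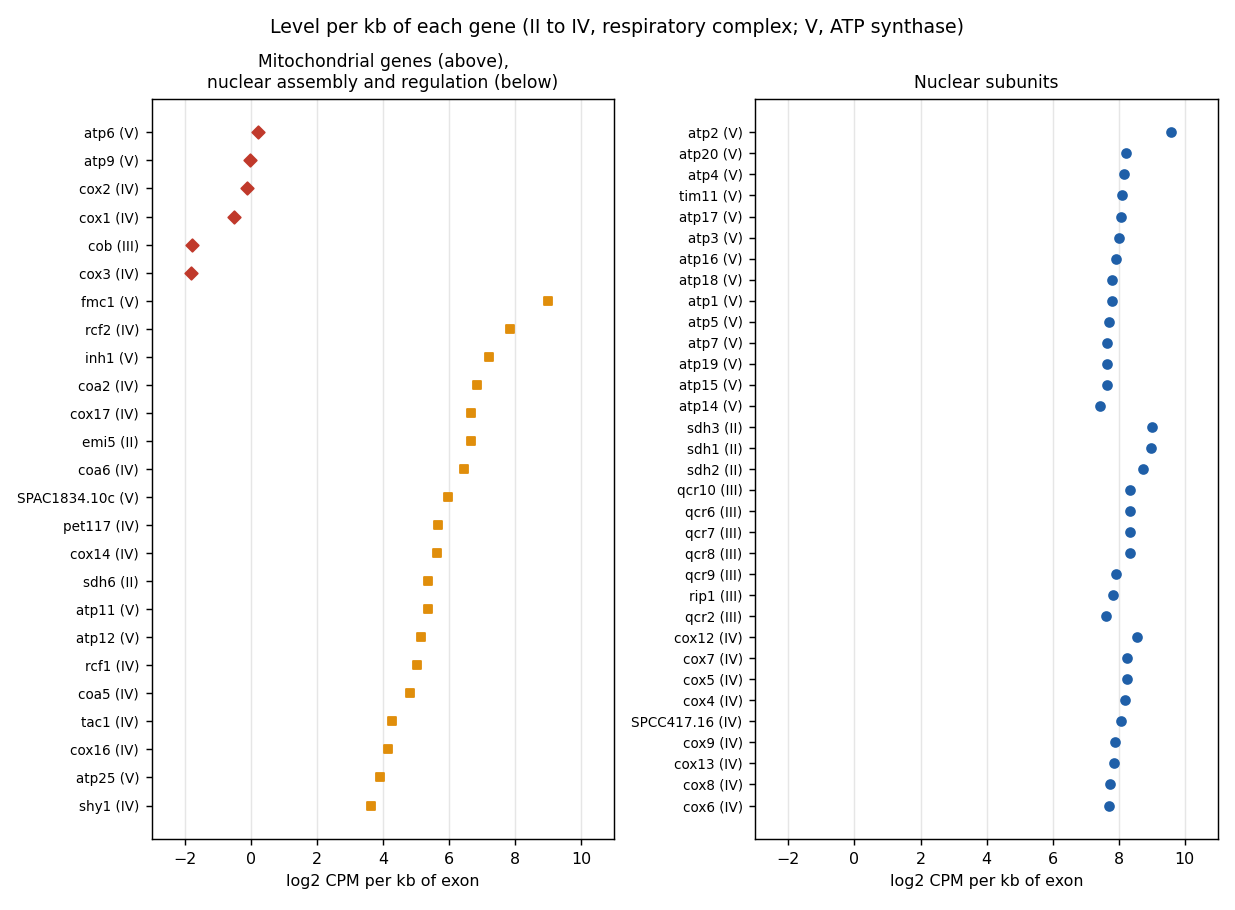
Level of each gene per kb of exon (log2 CPM per kb, horizontal axis), with II to IV marking the respiratory complex and V the ATP synthase. Left, the 6 mitochondrial genes above the 19 nuclear assembly factors and regulators, which run between 3.64 and 9.00. Right, the 33 nuclear subunits, which run between 7.43 and 9.59.

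Within complex II, which is wholly nuclear, the 3 subunit genes among the members had similar levels per kb of exon. *sdh3*, for the membrane-anchoring cytochrome b subunit, had a log2 level of 9.01, *sdh1*, for the flavoprotein that oxidizes succinate, had 8.97, and *sdh2*, for the iron-sulfur subunit, had 8.73. Per kb of coding length they were further apart, at 9.78, 9.07 and 9.40. Their average log2 CPM values as deposited were 8.89 for *sdh3*, 10.02 for *sdh1* and 9.13 for *sdh2*. The complex has 2 assembly genes among the members. *emi5*, whose budding yeast counterpart is needed for attachment of the flavin to Sdh1, had 6.65 per kb, and *sdh6*, described as assembly factor 1, had 5.36. Complex II had the highest median of the complexes per kb of exon, at 8.73 over its 5 nuclear members, but per kb of coding length its median of 9.07 was below the 9.12 of complex III. That order rests on the 2 assembly genes, since with subunits alone complex II had 9.40 per kb of coding length, above the 9.12 of complex III.

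In complex III, 4 of the 7 nuclear subunit genes had almost the same level per kb of exon. *qcr10*, *qcr6* (the hinge protein), *qcr7* and *qcr8* had log2 levels per kb of 8.36, 8.35, 8.35 and 8.35, although their average log2 CPM values as deposited were 7.06, 8.20, 8.43 and 7.59. The other 3 were somewhat lower, with 7.92 for the small subunit gene *qcr9*, 7.82 for *rip1*, which encodes the Rieske iron-sulfur protein, and 7.61 for *qcr2*, which encodes a core protein. This closeness depended on the length used, since per kb of coding length *qcr10*, *qcr6*, *qcr7* and *qcr8* had 9.12, 8.83, 9.70 and 9.44. The SD over the 7 genes was 0.32 on the log2 scale per kb of exon and 0.61 per kb of coding length. No gene matched as an assembly factor of complex III.

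In complex IV the 9 nuclear subunit genes ran between 7.70 and 8.55 per kb of exon. *cox12* (subunit VIb) had the highest log2 level on this scale, 8.55, followed by *cox7* and *cox5* with 8.26 each, *cox4* with 8.19, the unnamed subunit gene SPCC417.16 with 8.08, *cox9* with 7.90, *cox13* with 7.85, *cox8* with 7.72 and *cox6* with 7.70. These small subunits surround the catalytic core that *cox1*, *cox2* and *cox3* encode. The 9 genes had an SD of 0.28 per kb of exon and 0.62 per kb of coding length, and on coding length SPCC417.16 was the highest with 10.26, against 9.18 for *cox12*. SPCC417.16 is an uncertain member, since a gene described as dubious and an ncRNA overlap its exons.

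The 11 assembly and regulatory genes of complex IV had a median of 5.63 and an SD of 1.30. *shy1*, the counterpart of human SURF1, which acts in the maturation of Cox1, had 3.64 per kb of exon, the lowest level of all nuclear members on this scale. Its annotated exons span 4271 bases around a coding length of 873, and per kb of coding length *shy1* had 5.93 and *tac1* was the lowest nuclear member with 4.74, as it was without division by length. *cox16* had 4.16, and *tac1*, described as a translational activator of cytochrome c oxidase subunit I, had 4.28. *coa5* followed with 4.82, *rcf1* with 5.04, *cox14* with 5.63, *pet117* with 5.66 and *coa6* with 6.46. The copper chaperone gene *cox17* had 6.66 and *coa2* had 6.85. *rcf2*, whose budding yeast counterpart joins respiratory supercomplexes, stood apart with 7.83, inside the range of the subunit genes. Its annotated exons span 2889 bases around a coding length of 729, and per kb of coding length it had 9.82. Its reads are uncertain, since its exons overlap another gene and an ncRNA, 1 of them on the same strand.

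In the ATP synthase the 14 nuclear subunit genes ran between 7.43 and 9.59 per kb. *atp2*, for the catalytic beta subunit, had the highest level of all members per kb of exon at 9.59, higher than 95.7% of nuclear protein-coding genes. The next was *atp20* (subunit G) at 8.21. *atp4*, *tim11* (subunit E), *atp17* and *atp3* (the gamma subunit of the rotor) had 8.15, 8.09, 8.06 and 8.01. *atp16* had 7.92, *atp18* 7.80, *atp5* 7.70, *atp7* 7.66, *atp15* and *atp19* 7.65 each and *atp14* 7.43. *atp1*, for the alpha subunit that pairs with beta in equal number in the F1 head, had 7.80 per kb of exon, against 9.59 for *atp2*. This difference depended on the length used. The annotated exons of *atp1* span 4795 bases around a coding length of 1611, and overlap neighbouring genes, and per kb of coding length *atp1* had 9.37 and *atp2* 9.85. On that scale *atp17* had 9.46, so *atp2* had close neighbours among the ATP synthase subunit genes, and it was below SPCC417.16 of complex IV.

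The 6 assembly and regulatory genes of the ATP synthase had a median of 5.66 per kb. *atp11* and *atp12*, the chaperones that in budding yeast bind the beta and alpha subunits before they join, had nearly equal levels of 5.35 and 5.16. *atp25*, whose budding yeast counterpart acts on the *atp9* message and on assembly of the subunit 9 ring, had 3.91. The unnamed assembly gene SPAC1834.10c had 5.97, and *inh1*, the inhibitor of ATP hydrolysis by the enzyme, had 7.22. *fmc1*, a matrix assembly factor for F1, was the exception with 9.00, above all subunit genes of the complex other than *atp2* per kb of exon, though on coding length, where it also had 9.00, *atp1*, *atp15* and *atp17* were above it too. Its reads are uncertain, since its annotated exons overlap an ncRNA, and no UTR is annotated for it, which shortens the length used.

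Over the nuclear members together, the 19 assembly and regulatory genes had a median log2 level per kb of 5.63 and the 33 subunit genes 8.06, so that the subunit genes were 5.41-fold higher. Of the 19, 17 were below the lowest subunit gene, *atp14*, and the exceptions were *rcf2* and *fmc1*, whose reads are uncertain. Of all nuclear protein-coding genes, 85.0% were below *atp14* too, so this count is near the share over all genes. Per kb of coding length 15 of 19 were below the lowest subunit gene, *qcr2*, for which the share over all genes was not computed. Without division by length 10 of 19 were below the lowest, *cox8*, against 36.3% of all nuclear protein-coding genes. With every member whose exons overlap another listed gene left out, the difference of -2.44 on the log2 scale shrank to -1.31, a value that rests on only 4 assembly genes.

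The nuclear subunit genes also varied little among themselves in level per kb. On the log2 scale per kb the SD was 1.40 over the assembly and regulatory genes and 0.46 over the subunit genes, against 2.14 over all 5042 nuclear protein-coding genes. Over the 74 mitochondrial ribosomal protein genes it was 1.04. The 74 include the fusion genes *cox1101* and *cox1102*, with low and uncertain levels of 1.88 and 2.06, and the SD without them was not computed. Of the 33 subunit genes, 28 lay within 0.5 of their median, a window that held 7.06% of all nuclear protein-coding genes. That window is centred on the subunit genes' own median of 8.06, and the median of all nuclear protein-coding genes was 5.33. The 7.06% therefore reflects where the window lies and is no measure of the spread of all genes. Without the division by length the SD was 1.08 over the subunit genes, above the 0.89 over the mitochondrial ribosomal protein genes. The average log2 CPM of the subunit genes followed their exon length closely (Pearson's r = 0.91, Spearman's rho = 0.92, across 33 genes). Across all nuclear protein-coding genes the same relation was weak (r = 0.15, rho = 0.14, n = 5042). These coefficients describe genes measured in the same 6 libraries, and genes are not independent replicates.

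**Figure D3:**
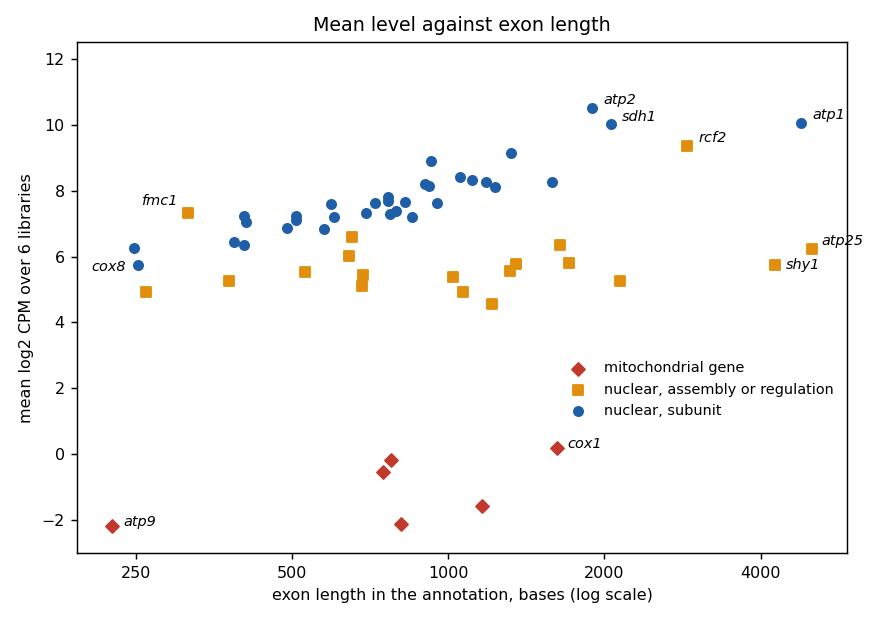
Average log2 CPM over the 6 libraries (vertical axis) against annotated exon length in bases (horizontal axis, log scale), 1 point a gene. The nuclear subunits (blue circles) lie along a rising band (r = 0.91), which *fmc1* and *rcf2* join and the other assembly and regulatory genes (orange squares) lie below, and the mitochondrial genes (red diamonds) lie lowest.

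Among all nuclear protein-coding genes the nuclear subunit genes ranked high, while the assembly and regulatory genes were nearer the middle. The median log2 level per kb of all 52 nuclear members was 7.80, against 5.31 for the other 4990 genes, which is 5.61-fold higher. Of the 52, 45 were above the median of all nuclear protein-coding genes. As deposited, without division by length, the medians differed by 1.01. All 33 subunit genes were above the median per kb of all nuclear protein-coding genes, and 17 of them were among the highest 10% of those genes, above 8.03. Of the 19 assembly and regulatory genes, 12 were above the median per kb of all nuclear protein-coding genes. Without division by length 5 of the 19 were above the corresponding median. *fmc1* was the single one of the 19 among the highest 10% per kb. The 74 nuclear genes for mitochondrial ribosomal proteins, whose products translate the mitochondrial members, had a median of 6.05 and 1 gene among the highest 10%. Subunit genes were 4.03-fold higher than these, and 72 of the 74 were below the lowest subunit gene, against 85.0% of all nuclear protein-coding genes. The assembly and regulatory genes, with a median of 5.63, were nearer to the ribosomal protein genes than to the subunits they serve. They were nearer still to the median of all nuclear protein-coding genes, 5.33. Per kb of coding length their median was 7.02, against 6.95 for the ribosomal protein genes and 5.93 for all nuclear protein-coding genes.

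**Figure D4:**
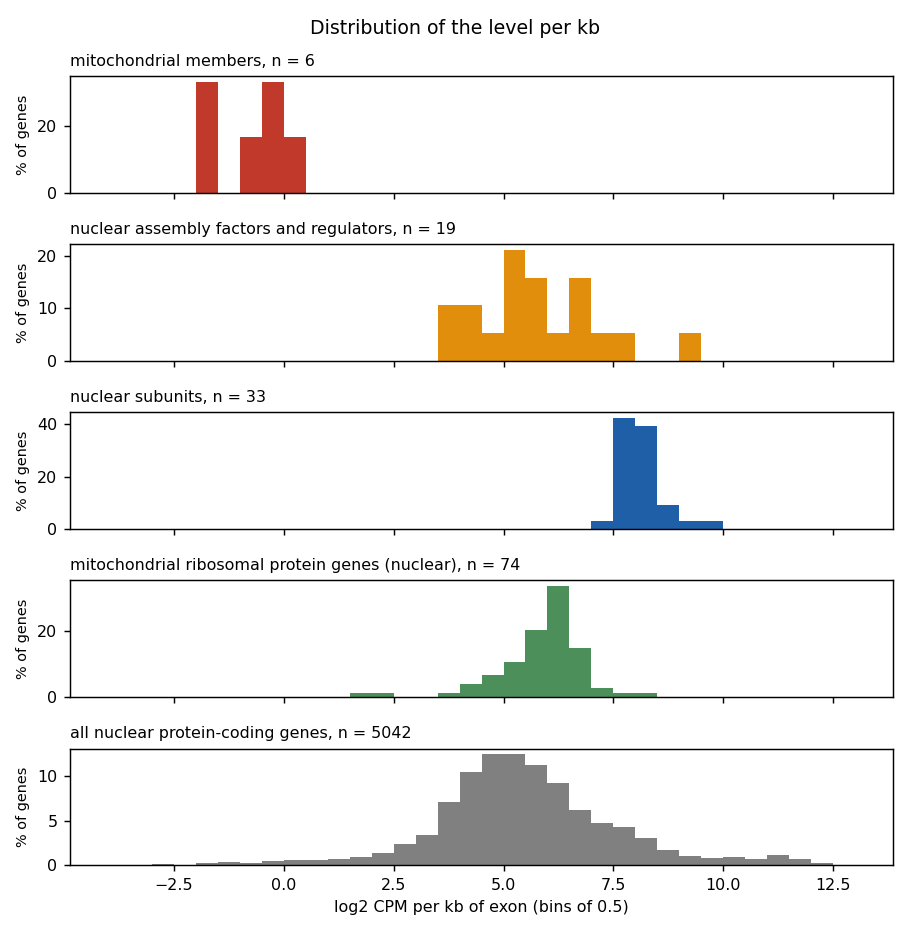
Share of genes (percent, vertical axes) by log2 CPM per kb of exon (horizontal axis, bins of 0.5) for the mitochondrial members, the nuclear assembly factors and regulators, the nuclear subunits, the mitochondrial ribosomal protein genes and all nuclear protein-coding genes. The 33 nuclear subunits form a narrow peak around their median of 8.06, above the medians of 5.63, 6.05 and 5.33 of the other nuclear classes.

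In terms of reads, the 52 nuclear members summed to 11494.5 CPM, or 1.15% of the sum over all genes and ncRNAs listed, and the 6 mitochondrial members to 3.50 CPM. The ATP synthase took 44.4% of the nuclear members' reads, complex IV 21.9%, complex II 18.9% and complex III 14.8%. Subunit genes held 85.4% of them, and 31.0% came from *atp2*, *atp1* and *sdh1* alone. These shares follow the length and number of the genes as well as the abundance of their transcripts.

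The nuclear members shared features that did not enter their choice. Their median coding length was 375 bases, against 1143 over all nuclear protein-coding genes, and 36 of the 52 (69.2%) were under 600 bases, against 20.1%. Shortness was not particular to them, since the 74 mitochondrial ribosomal protein genes had a median of 532.5 bases and 54.1% under 600. A coding intron was annotated in 36 of 52 (69.2%), against 47.1% of all nuclear protein-coding genes and 44.6% of the 74 mitochondrial ribosomal protein genes. *cox13* had the most, with 5. The share was nearly the same in assembly and regulatory genes (68.4%) and in subunit genes (69.7%), but the number of coding introns per gene was not, with a mean of 0.79 in assembly and regulatory genes and 1.55 in subunit genes. The members were spread over the genome, with 22 on chromosome I, 18 on chromosome II and 12 on chromosome III, and no pair of them adjacent.

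Other genes of the pathway, found by the words cytochrome c, NADH dehydrogenase, ubiquinone biosynthesis or adenine nucleotide carrier, numbered 15. They include genes for assembly, heme attachment, ubiquinone synthesis and ATP exchange as well as chain components. Within the range of the nuclear subunit genes per kb, which held 10.7% of all nuclear protein-coding genes, were 3 of the 15. These were *cyc1*, for the electron carrier cytochrome c, with 8.96, *cyt1*, for cytochrome c1, itself a subunit of complex III whose description does not name the complex, with 8.38, and *anc1*, for the carrier that exchanges ATP for ADP, with 8.23. The NADH dehydrogenase genes *nde1* (SPAC3A11.07) and *ndi1* (SPBC947.15c) were lower, with 7.31 and 6.41. Their deposited descriptions name them Nde2 and Nde1 in that order, unlike the annotation's symbols. The 5 ubiquinone biosynthesis genes ran between 5.59 for *coq11* and 7.15 for *coq7*. The lowest of the 15 was *cox1101* with 1.88, a gene for a cytochrome c oxidase assembly protein fused to a mitochondrial ribosomal protein. It and its near-identical copy *cox1102*, with 2.06, are uncertain, since reads that fit both copies may not have been counted for either. These fusion genes are also counted among the 74 mitochondrial ribosomal protein genes.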

How the data were processed

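RNA was prepared by the authors from 3 *mkt1Δ* and 3 wild-type cultures grown at 32°C, converted to stranded mRNA libraries and sequenced paired-end. Per the paper's methods, reads were trimmed with cutadapt 1.8.3, aligned with STAR 2.5, assigned to genes by the union mode of HTSeq 0.6.1 and analysed in edgeR 3.12.0, after genes with few reads were discarded. Whether counting used strand is not given in the sources used here. Exons of 33 of the 52 nuclear members overlap another listed gene, 6 on the same strand and 27 on the opposite strand only, so reads of these members are uncertain. None of the 6 mitochondrial members overlaps one.

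The deposited table holds, for 6345 genes and ncRNAs, the authors' average log2 CPM over all 6 libraries, and the authors' own fold change, p-value and adjusted p-value for the strains. The latter 3 columns are the study's comparison and were not used. No value of a single library was used, so the planned edgeR fit was not made, the depth per library is unknown, no p-value was computed and the replicates were not compared with each other. No per-sample column was left unused (0).

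The level per kb is the deposited log2 CPM minus log2 of the exon length in kb (1 kb is 1000 bases). Symbols, lengths, introns and overlaps came from the RefSeq annotation of assembly ASM294v3, in which 6304 of the 6345 identifiers and 58 of the 58 members were matched. The authors aligned to an earlier assembly, so no coordinates or sequences are given. Lengths were those of the first annotated transcript, and can differ from the exons over which the authors counted reads. How far this moved the levels per kb was not tested. Lengths of mitochondrial genes were matched by description. Medians were compared without tests, because genes are not replicates. Members, lists and comparisons were chosen with earlier results of these data known. Named were every mitochondrial member, the 3 nuclear members of highest and the 3 of lowest level per kb in each complex, and the highest and lowest of each further pathway word. The other members, *cyt1* and *cox1102* were named for their role after their values were seen. Alternatives were coding length, no division by length, genes with log2 CPM above 0, means, and subunits alone. Leaving out overlapping members or *rcf2* and *fmc1*, and every alternative for the assembly genes and for the SD, were chosen after seeing the data. The medians were checked on simulated data. Python 3.11.15, numpy 2.4.6, pandas 2.3.3, scipy 1.17.1 and matplotlib 3.10.9 were used.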

Additional observations from a re-analysis of the deposited data

How the results depend on the processing

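All differences kept their sign under each alternative computed. The difference between mitochondrial and nuclear members (-8.12) was -8.99 per kb of coding length, -8.25 without division by length, -8.32 above a log2 CPM of 0, where *cox1* is the single mitochondrial member left, -7.93 between means, -8.39 with subunits alone and -8.22 without overlapping members. The nuclear medians were 9.07 per kb of coding length and 8.97 with subunits alone in complex II, 9.12 per kb of coding length in complex III, 8.32 and 8.08 in complex IV, and 8.68 and 7.86 in the ATP synthase, so that complex III stood above complex II on coding length over all nuclear members. With subunits alone on coding length, complex II stood above complex III, at 9.40 against 9.12. The nuclear members exceeded other nuclear protein-coding genes by 2.75 per kb of coding length, 1.01 without division by length, 2.46 above a log2 CPM of 0 and 2.59 without overlapping members. The assembly and regulatory genes differed from subunit genes by -1.87 per kb of coding length, -2.06 without division by length, -1.31 without overlapping members and -2.70 without *rcf2* and *fmc1*. The SD over subunit genes was 0.54 per kb of coding length, 1.08 without division by length and 0.57 without overlapping members. The cause of these shifts was not tested. DESeq2 size factors, a filter on counts and leaving out each replicate were not run, since they need counts per library. No paired analysis was possible because each level is an average over all 6 libraries. Depth per library is unknown, which limits the mitochondrial levels most.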
